A study of Mus musculus with 15 samples.

Results

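The genes described here are 40 genes of glycolysis and of the response to low oxygen, followed in sorted kidney cells of newborn mice over 5 postnatal days. They were taken from a list by gene symbol and fall into 4 roles. There were 17 glycolytic enzymes, 7 genes for the transport of fuel and the regulation of its flux, 12 other targets of the hypoxia response, and 4 genes for the hypoxia-inducible factors and their control. A gene counted as measured where a probe set of the array carries its symbol and no other, and the probe set with the highest mean over the 15 arrays stood for a gene with several. This held for 37 of the 40 members, out of 19938 genes in all, and Gpi1, Gapdh and Eno1 had no such probe set in the table used here. Of the 37, 32 passed a filter on low values and were tested, among 11885 genes tested in all. Pfkp, Eno2, Slc2a3, Pfkfb4 and Adm did not pass it and are given by value only. Egln3, Car9 and Aldoc passed it only through the pools of the days on which they are high (P0, P0 with P1, and P1), so their differences between those days and others are tested on genes which that side let in, and counts are also given for the 29 members without these 3.

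All samples came from mice that carry the transgene Tg(Crym-EGFP)82Gsat on the CD-1 strain, in which Crym sequence on a bacterial artificial chromosome drives a green fluorescent protein, and pups were raised by CD-1 foster mothers. Kidneys were dissociated with trypsin and fluorescent cells were sorted on postnatal days P0, P1, P2, P3 and P4, with 3 samples for each day and about 4 kidneys pooled in each sample. By their labels the 12 pools from P0 through P3 hold cap mesenchyme, progenitors of the nephron around the tips of the ureteric bud, and the 3 pools of P4 hold renal vesicle, the first epithelial stage of the nephron, so that day and compartment cannot be told apart at P4. Every group carries the transgene, the sex is labelled unknown, and no label ties the 3 pools of a day to separate litters. The p-values therefore measure the spread between these pools, which may be technical.

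Glycolysis splits glucose into pyruvate in the cytoplasm and yields ATP without oxygen, with lactate dehydrogenase returning pyruvate to lactate. When oxygen is scarce the prolyl hydroxylases no longer mark the alpha subunits of the hypoxia-inducible factors for removal through Vhl, and the factors bind with Arnt to short elements that hold the core ACGTG or GCGTG. Many glycolytic genes are known targets of these factors, which are regulated to a large part through the stability of the protein. The fetal kidney develops at low oxygen, and nephron progenitors are known to use glycolysis.

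The promoters of 6 members that the results turn on are shown first, because they hold the element to unequal extent. Of the 6 members with the smallest limma p between P1 and P0, they are the 5 that have 1 annotated start in the table used. The last is Ldhb, which moved the other way at P4. Tpi1 and Ankrd37, named after their values were seen, also have 1 start each and are not printed. Each printed window is 300 bases of the gene's own strand, 5′ to 3′, with 250 bases before and 50 after an annotated start, from RefSeq for build GRCm38.p6. Capitals mark ACGTG and GCGTG and their reverse complements CACGT and CACGC.
Egln3 (chr12:54203825-54204124, minus strand): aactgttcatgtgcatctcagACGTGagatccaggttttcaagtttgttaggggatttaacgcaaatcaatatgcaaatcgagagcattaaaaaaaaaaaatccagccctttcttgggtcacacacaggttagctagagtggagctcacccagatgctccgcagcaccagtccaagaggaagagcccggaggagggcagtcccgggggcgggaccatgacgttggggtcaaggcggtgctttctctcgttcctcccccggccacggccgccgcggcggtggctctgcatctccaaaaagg
Pfkl (chr10:78009758-78010057, minus strand): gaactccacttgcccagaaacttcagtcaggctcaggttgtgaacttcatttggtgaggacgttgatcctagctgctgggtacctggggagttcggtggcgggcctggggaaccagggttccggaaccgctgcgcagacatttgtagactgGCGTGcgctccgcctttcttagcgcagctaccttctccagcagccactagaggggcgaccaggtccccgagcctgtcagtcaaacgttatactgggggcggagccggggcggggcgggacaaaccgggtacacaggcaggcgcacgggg
P4ha1 (chr10:59323046-59323345, plus strand): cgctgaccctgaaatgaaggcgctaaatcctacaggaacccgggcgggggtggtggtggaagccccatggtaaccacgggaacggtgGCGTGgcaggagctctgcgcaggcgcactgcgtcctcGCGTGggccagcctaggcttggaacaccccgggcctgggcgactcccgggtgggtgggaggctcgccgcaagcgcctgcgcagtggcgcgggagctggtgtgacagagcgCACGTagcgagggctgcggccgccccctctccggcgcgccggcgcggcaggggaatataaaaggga
Pgk1 (chrX:106186850-106187149, plus strand): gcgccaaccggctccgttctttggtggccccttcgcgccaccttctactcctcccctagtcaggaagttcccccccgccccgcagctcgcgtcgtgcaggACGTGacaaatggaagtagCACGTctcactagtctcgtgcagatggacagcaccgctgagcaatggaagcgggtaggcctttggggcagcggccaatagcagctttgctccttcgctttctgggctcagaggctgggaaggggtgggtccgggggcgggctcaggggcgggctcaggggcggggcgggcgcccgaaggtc
Bnip3 (chr7:138909457-138909756, minus strand): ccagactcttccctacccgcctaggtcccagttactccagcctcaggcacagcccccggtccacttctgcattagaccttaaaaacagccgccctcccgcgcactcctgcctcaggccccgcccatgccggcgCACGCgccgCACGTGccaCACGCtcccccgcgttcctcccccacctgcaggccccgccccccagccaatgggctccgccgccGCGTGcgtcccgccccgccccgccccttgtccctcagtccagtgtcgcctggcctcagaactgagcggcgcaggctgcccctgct
Ldhb (chr6:142507908-142508207, minus strand): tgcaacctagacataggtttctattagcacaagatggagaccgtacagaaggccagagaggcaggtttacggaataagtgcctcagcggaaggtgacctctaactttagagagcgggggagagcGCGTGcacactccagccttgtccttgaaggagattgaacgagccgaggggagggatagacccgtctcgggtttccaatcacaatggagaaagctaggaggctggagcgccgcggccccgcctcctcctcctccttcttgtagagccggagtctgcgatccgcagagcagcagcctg
Pgk1 holds 2 matches to ACGTG and Egln3 1. Bnip3 holds 2 to ACGTG, which are the strands of 1 palindrome CACGTG, and 3 to GCGTG. P4ha1 holds 1 and 2 of these. Pfkl and Ldhb hold no ACGTG and 1 GCGTG each.

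Over the whole set, 36 members had 50 promoter windows in that table. Of these 50, 27 (54.0%) held ACGTG, against 25.1% of the 12007 windows of the genes tested and 19.6% of all 32851 windows. GCGTG was in 58.0% of the members' windows, against 49.3% for the genes tested and 32.4% for all windows. At least 1 of the cores was in 40 of the members' windows (80.0%), against 60.7% for the genes tested and 43.8% for all. Both strands were searched, and the palindrome CACGTG, which counts on each strand, was in 6 member windows. By role, ACGTG was in 9 of 11 windows of the other hypoxia targets, in 5 of 8 of the transport and flux genes, in 12 of 28 of the enzymes and in 1 of 3 of the factors. Tpi1, the triosephosphate isomerase, held neither core in its window. A match is a description of the letters in the window and not of binding, and windows of 1 gene can overlap.

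**Figure D1:**
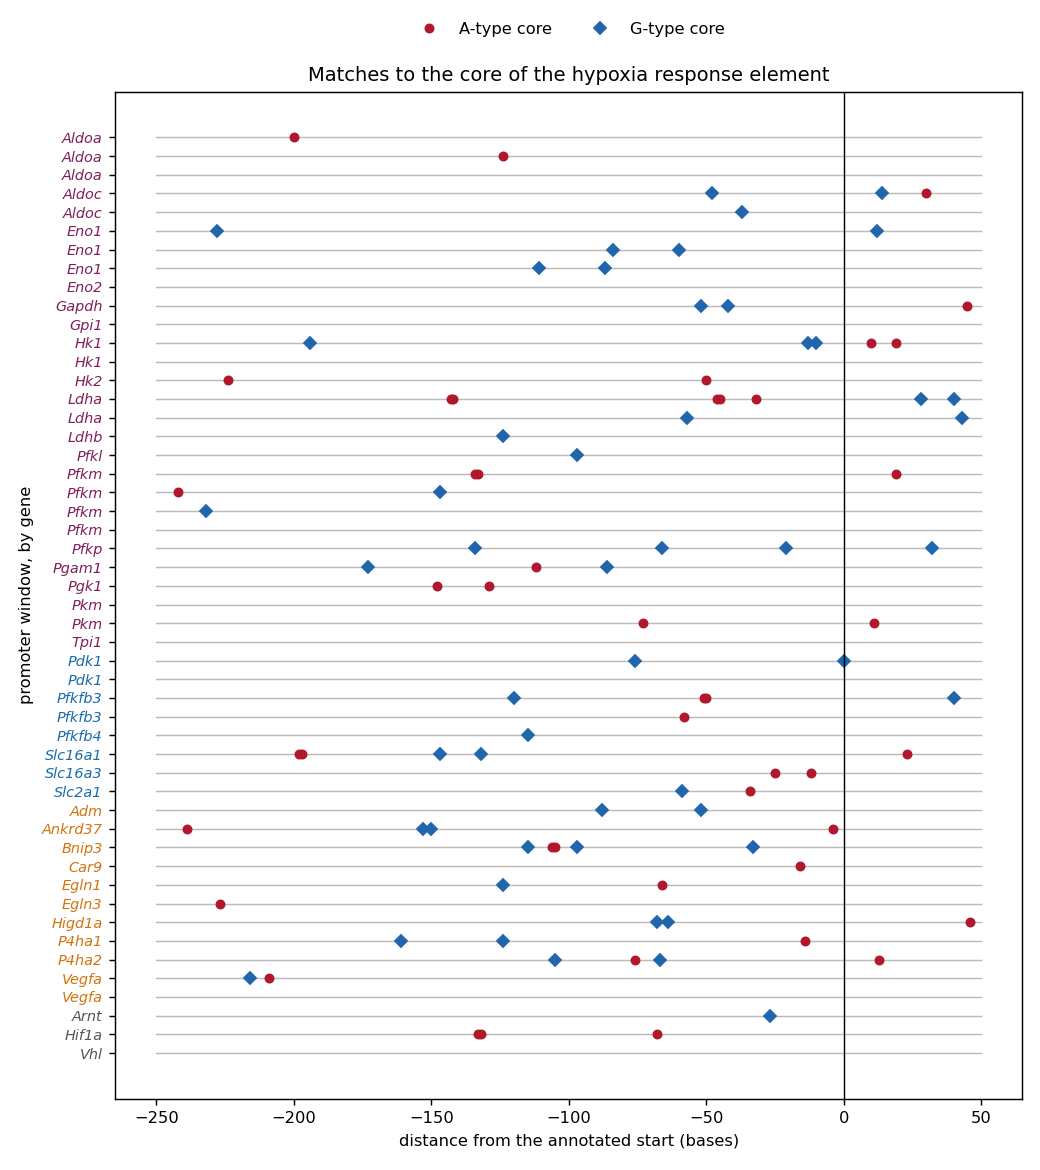
Each line is 1 promoter window of a member, from 250 bases before to 50 after the annotated start at 0 on the x axis in bases, grouped by role (purple names are enzymes, blue transport and flux, orange other targets, grey factors). Red circles mark the core that begins with A and blue diamonds the core that begins with G, on either strand, and 40 of the 50 windows hold at least 1 of them.

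The values are on a log2 scale, with array medians between 6.80 and 6.92. The first replicate of each day stands apart from the other two in all days, with an interquartile range of 2.14 to 2.27 over all probe sets, against 2.52 to 2.77 in replicates 2 and 3. The first replicate was the lowest of its day on all 5 days for 10 of the 32 members tested, against 23% of all genes, and the highest on all 5 days for Egln3 and Hk1, against 5.71%. The probe set of Hk1 is a doubtful one, as described with the enzymes. Deviations of samples with the same replicate number correlated at over 0.1 in every pair of days compared. A fit with the replicate number as a block is therefore given beside the fit without it wherever it changes a call between 2 days. Between P0 and P1 the number pairs mainly the first replicates (0.793). Replicates 2 and 3 of P0 correlated more with the other number at P1 (0.674 and 0.504) than with their own (0.138 and 0.139). Tests are those of limma with Benjamini-Hochberg adjustment over all 11885 genes and a threshold of 0.05. In these sorted pools, fewer cells of a type and less RNA per cell cannot be told apart.

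Between P0 and P1 a share of the enzymes and of the other hypoxia targets read lower, with differences of -0.36 to -0.76 on the log2 scale in the 12 members furthest by p, while the 4 factor genes lay within -0.15 and 0.03. In the fit without the block, 0 of the 32 members and 0% of all genes passed the adjusted threshold of limma, and these 12 members, all lower at P1, had an unadjusted p under 0.05, against 238 of all genes (2%) and 1.35% for unadjusted p with P1 lower. With the replicate block, 4 members passed and all fell, against 0.168% of all genes (20 genes) and 0.16% for genes that fell. They were the enzymes Pfkl, Tpi1 and Aldoa, and Egln3, a prolyl hydroxylase of the hypoxia-inducible factors. All 3 P1 pools lay below all 3 P0 pools for 11 of the 32 members, against 2.78% of all genes, and above them for Aldoc alone, against 2.08%. Of the 29 members without Egln3, Car9 and Aldoc, 3 passed with the block, 11 had the unadjusted p, 10 lay below P0 in all pools and 0 above. P1 was below P0 in all 3 same-numbered pairs for 18 members, against 12.1% of all genes. This count depends on pairing by number, which at this step is clear only for the first replicates.

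The median difference between P1 and P0 was -0.34 over the 12 enzymes tested, -0.29 over the 5 transport and flux genes, -0.17 over the 11 other hypoxia targets and -0.02 over the 4 factor genes, against 0 over all genes. Lower at P1 were 9 of the enzymes, 4 of the transport and flux genes, 10 of the other targets and 2 of the factor genes. Without Hk1 these were 9 of 11 enzymes, with a median of -0.36, and with Hk1 on the probe set backed by RefSeq 10 of 12, with a median of -0.34. The ranges of the enzymes and the other targets overlapped. Enzymes ran from -0.74 for Tpi1 to 0.14 for Aldoc, and other targets from -0.76 for P4ha1 to 0.15 for Higd1a. The difference between the roles was not tested.

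**Figure D2:**
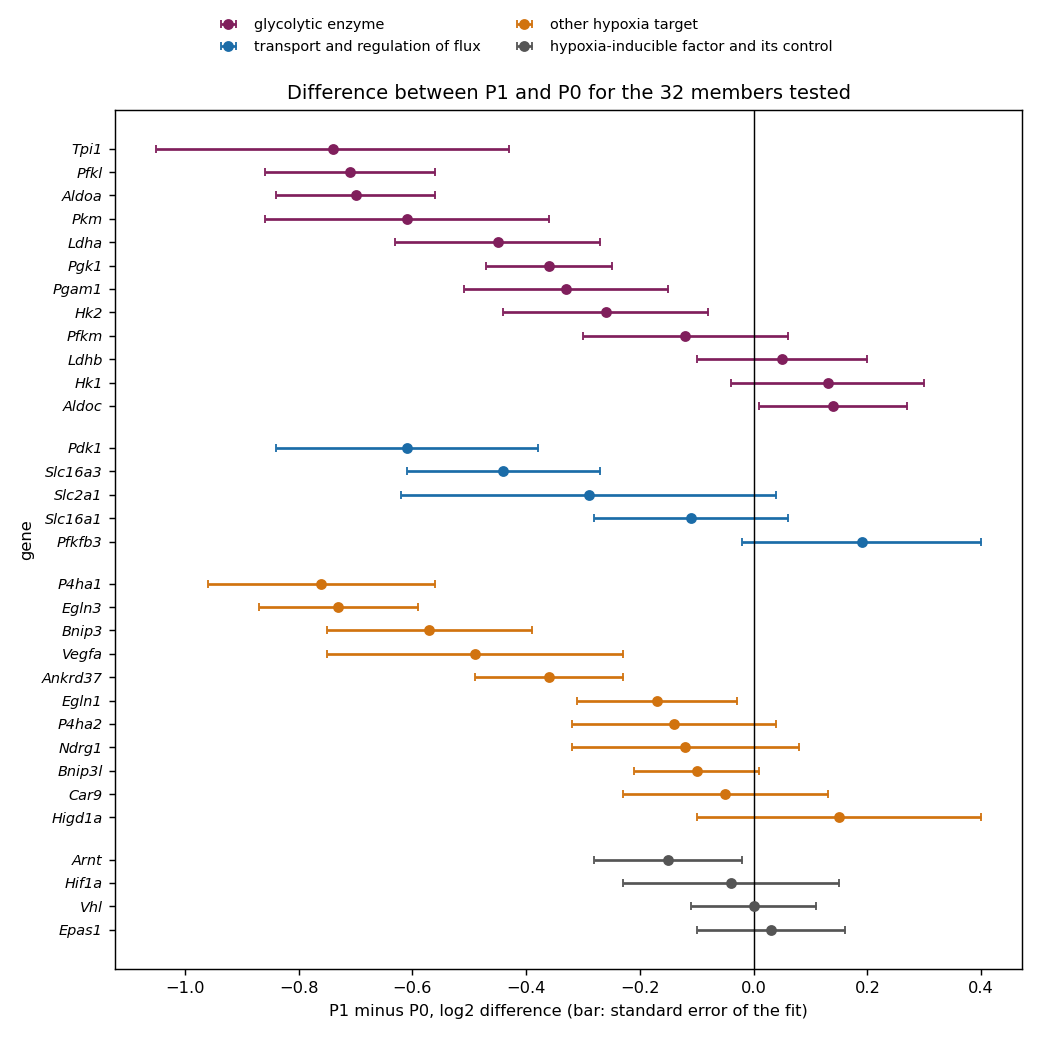
The x axis gives the log2 difference P1 minus P0 for each of the 32 members tested and the bar its standard error in the limma fit without the block. Colours give the role, and 25 of the 32 points lie left of 0 (25 of 31 without Hk1), with P4ha1 at -0.76 and Tpi1 at -0.74 the lowest.

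Pfkl, the liver-type subunit of phosphofructokinase, which commits fructose 6-phosphate to glycolysis, read 6.90, 7.13 and 7.31 in the P1 pools, against 7.72, 7.85 and 7.91 in the P0 pools. The groups did not overlap, and each P1 pool was lower than the P0 pool of its number by 0.60 to 0.82. The difference was -0.71 ± 0.15 (SE), 1.64-fold, with limma adjusted p = 0.26, and adjusted p = 0.02 with the replicate block.

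Aldoa, the aldolase that splits fructose 1,6-bisphosphate, read 9.46, 9.66 and 9.73 at P1, against 10.18, 10.21 and 10.57 at P0. All P1 pools were lower, and the later pools stayed there. Its difference was -0.70 ± 0.14 (SE), 1.63-fold, with limma adjusted p = 0.19, and 0.036 with the replicate block.

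Tpi1, the isomerase that follows aldolase, read 9.25, 9.78 and 10.04 at P1, against 9.92, 10.59 and 10.80 at P0. Here the groups overlap, because the first replicate is the lowest of each day. The 3 same-numbered pairs differed by -0.66, -0.81 and -0.76, a pairing that is clear at this step only for the first replicates. The difference of -0.74 ± 0.31 (SE) had limma adjusted p = 1 without the block and 0.026 with it.

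Pgk1, the phosphoglycerate kinase that makes the first ATP of the pathway, read 11.38, 11.26 and 11.39 at P1, against 11.74, 11.60 and 11.76 at P0. The groups did not overlap and the same-numbered pairs agreed closely, at -0.36, -0.34 and -0.37. The difference of -0.36 ± 0.11 (SE) was small, 1.28-fold, and did not pass with the block either (limma adjusted p = 1 without it and 0.35 with it).

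Egln3 read 6.81, 6.65 and 6.56 at P1, against 7.58, 7.55 and 7.09 at P0. All P1 pools were lower, and of its 15 values only the 3 of P0 and 1 of P2 lay above 6.86, the median of all values, so that it passed the filter on low values through P0 and the later values are near the dim end. The difference was -0.73 ± 0.14 (SE), 1.66-fold, with limma adjusted p = 0.19, and 0.021 with the replicate block (0.028 with the block and no filter on low values).

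P4ha1, a collagen prolyl 4-hydroxylase subunit, read 8.15, 8.23 and 8.38 at P1, against 8.97, 9.17 and 8.90 at P0. It had the largest difference of the members tested, -0.76 ± 0.20 (SE), 1.69-fold, with no overlap. Its limma adjusted p was 0.70, and 0.10 with the replicate block. Bnip3, a mitochondrial receptor of mitophagy, read 8.53, 8.34 and 8.40 at P1, against 9.01, 9.16 and 8.81 at P0. All its P1 pools were lower, by -0.57 ± 0.18 (SE), 1.49-fold (limma adjusted p = 1, and 0.14 with the block), and a second probe set of Bnip3 differed by -0.82.

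Within replicates 2 and 3 alone, which leave out the pools that stand apart, no gene passed between P1 and P0 in limma, and the differences were of the same size. They were -0.66 for Pfkl, -0.69 for Aldoa, -0.78 for Tpi1, -0.36 for Pgk1, -0.71 for Egln3, -0.73 for P4ha1 and -0.62 for Bnip3.

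The other enzymes were uneven at this step. Pkm, the pyruvate kinase of the last ATP-yielding reaction, averaged 9.85 ± 0.29 at P1 and 10.46 ± 0.37 at P0 (SD, n = 3 each) on the probe set used, which the platform table backs with no RefSeq transcript, and it differed by -0.61 there and by -0.38 on the probe set that has one. Ldha, the lactate dehydrogenase subunit that favours lactate, averaged 9.90 ± 0.23 at P1 and 10.35 ± 0.28 at P0. Pgam1, the phosphoglycerate mutase, averaged 8.59 ± 0.11 at P1 and 8.92 ± 0.35 at P0, Hk2, a hexokinase, 7.31 ± 0.15 at P1 and 7.57 ± 0.19 at P0, and Pfkm, the muscle-type phosphofructokinase, 8.30 ± 0.30 at P1 and 8.42 ± 0.20 at P0. Ldhb and Aldoc were not lower at P1 on the probe sets used, but a second probe set of Ldhb averaged 7.68 ± 0.25 at P1 and 7.85 ± 0.03 at P0. No direction is given for Hk1, because its brightest probe set rests on 1 accession and no RefSeq transcript. A further 16 probe sets carry Hk1 together with other symbols. The brightest one differed by 0.13 and stands in the counts unless stated, while the RefSeq probe set of Hk1 averaged 7.42 ± 0.11 at P1 and 7.60 ± 0.24 at P0.

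Among the transport and flux genes, Pdk1, the kinase that shuts pyruvate out of the mitochondrial pyruvate dehydrogenase, read 7.85, 7.43 and 7.64 at P1, against 8.31, 8.40 and 8.02 at P0. All P1 pools were lower, by -0.61 ± 0.23 (SE) with limma adjusted p = 1. Slc16a3, a lactate exporter, averaged 7.80 ± 0.12 at P1 and 8.23 ± 0.35 at P0, and Slc2a1, the main glucose transporter, 8.42 ± 0.49 at P1 and 8.71 ± 0.46 at P0 (SD, n = 3 each), with most of its spread between the first replicates and the others. Pfkfb3, which raises the activator of phosphofructokinase, was slightly higher, at 7.25 ± 0.08 in P1 and 7.06 ± 0.21 in P0, and Slc16a1, a carrier of lactate and other monocarboxylates, averaged 8.50 ± 0.06 at P1 and 8.61 ± 0.20 at P0. None of these 4 passed in either fit.

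Of the remaining hypoxia targets, Vegfa, the vascular growth factor, read 8.04, 8.55 and 8.38 at P1, against 8.57, 8.77 and 9.11 at P0, and Ankrd37 8.06, 7.97 and 7.95 at P1, against 8.22, 8.40 and 8.43 at P0. In both the P1 pools were all lower. They differed by -0.49 ± 0.26 and -0.36 ± 0.13 (SE), each with limma adjusted p = 1. The other 6 tested differed by less than 0.2 at this step. These are Egln1, the main prolyl hydroxylase of the factors, Bnip3l, a relative of Bnip3, Car9, a carbonic anhydrase at the cell surface, Ndrg1, P4ha2 and Higd1a, a mitochondrial protein.

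**Figure D3:**
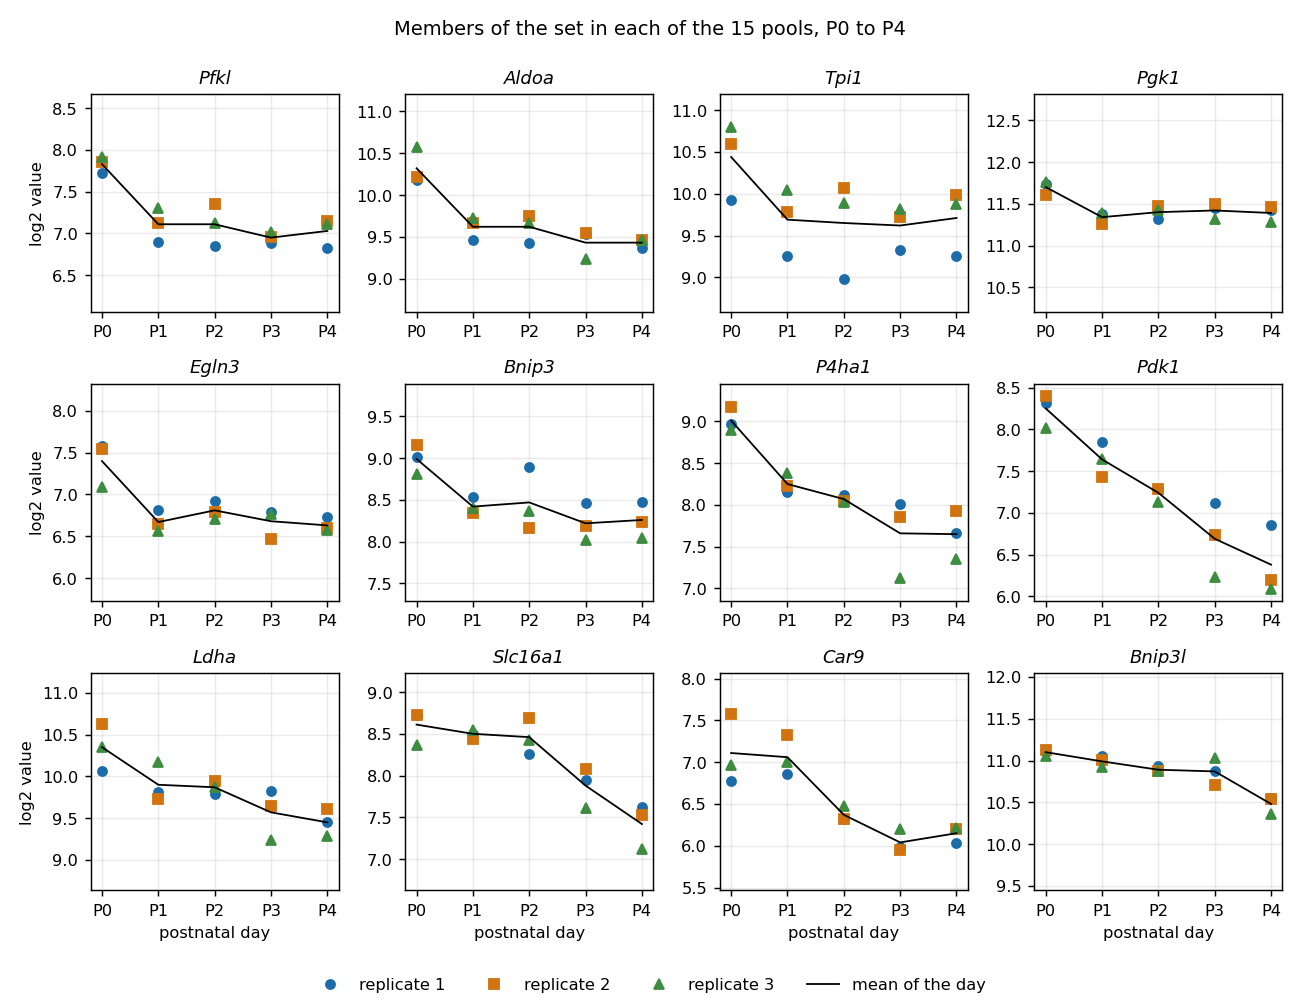
Each panel gives 1 member, with the log2 value of each pool (circles, squares and triangles are replicates 1, 2 and 3) against postnatal day and a line through the means of the days, and all panels span the same height on the y axis. Pfkl, Aldoa, Tpi1, Pgk1 and Egln3 are high at P0 and level from P1, while Pdk1 runs down through all 5 days to a P4 mean of 6.38.

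From P1 onwards the members took different courses. All 3 P0 pools lay above all 12 later pools for 7 of the 32 members tested, against 0.421% of all genes, and below them for 0, against 0.16%. The 7 were Pfkl, Aldoa, Pgk1, Pdk1, P4ha1, Egln3 and Bnip3l, or 6 of 29 without Egln3, Car9 and Aldoc. Bnip3l was separated only narrowly, with a lowest P0 pool of 11.06 and a highest P1 pool of 11.05. For Pfkl the day means ran 7.83, 7.11, 7.11, 6.95 and 7.03 over P0 to P4, for Aldoa 10.32, 9.62, 9.62, 9.43 and 9.43, and for Tpi1 10.44, 9.69, 9.65, 9.62 and 9.71. In these enzymes most of the difference between P4 and P0 was there at P1. Egln3 did the same, at 7.40, 6.67, 6.81, 6.68 and 6.63. Pfkl lay above 6.86, the median of all values, in 13 of its 15 pools, so its later means are near that level.

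Other members had lower means on the later days too. Pdk1 had day means of 8.25, 7.64, 7.24, 6.69 and 6.38, P4ha1 of 9.01, 8.25, 8.07, 7.66 and 7.65, and Ldha of 10.35, 9.90, 9.87, 9.57 and 9.45. Pdk1 lay above 6.86 in 10 of its 15 pools, so its P3 and P4 values are near the dim end. Slc16a1 was level until P2 and then lower, with 8.61, 8.50, 8.46, 7.88 and 7.42. Car9 had its step a day later than the enzymes, with 7.11, 7.06, 6.37, 6.04 and 6.15, and from P2 on all its pools lay under 6.86. Vegfa took a course of its own among the targets, with 8.82, 8.32, 8.48, 8.87 and 8.93, so that its P3 and P4 means were back at the level of P0.

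**Figure D4:**
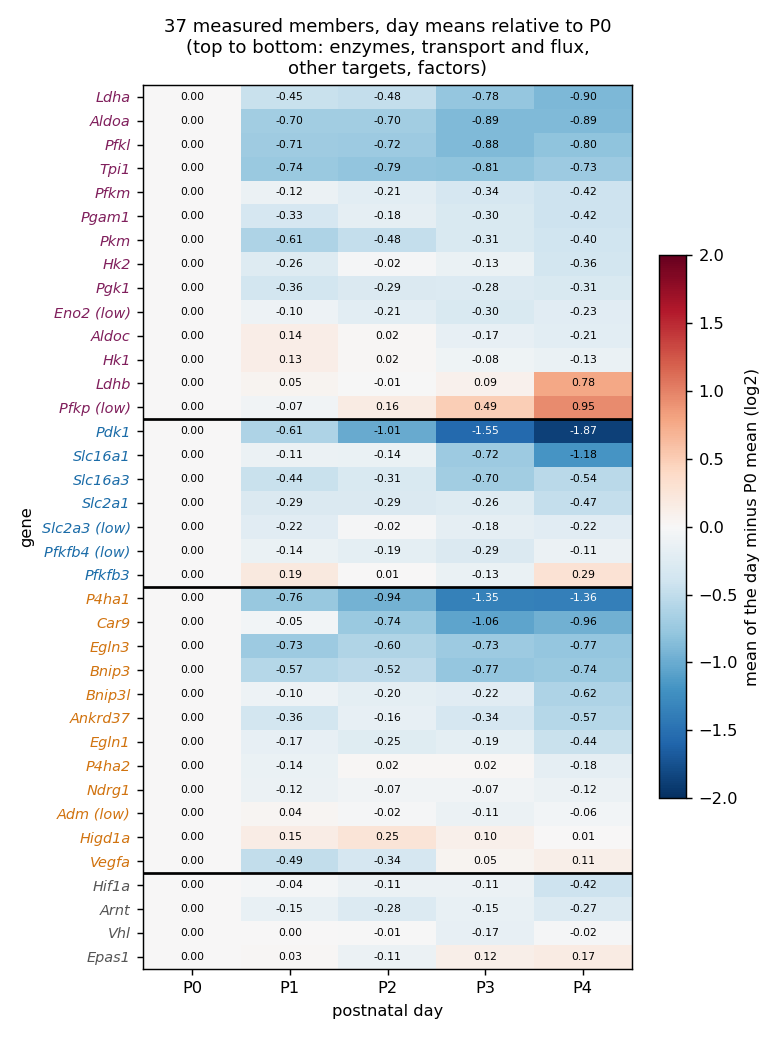
Rows are the 37 measured members, colours and printed values give the mean of the day minus the P0 mean on the log2 scale, and names marked low did not pass the filter. Rows run by role from enzymes at the top to the factors at the bottom, and Pdk1 reaches -1.87 and P4ha1 -1.36 at P4 while Ldhb reaches 0.78.

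Between neighbouring days after P1 few members passed. In P2 against P1, 0 members and 0.0841% of all genes passed in limma, with an unadjusted p under 0.05 for 1 member and 454 genes, and with the replicate block 1 member, Car9, against 0.959% of all genes. Car9 read 6.32, 6.32 and 6.48 at P2, against 6.86, 7.32 and 7.00 at P1. The pools did not overlap, and the difference of -0.69 ± 0.18 (SE) had limma adjusted p = 0.045 with the block. Car9 lay above the filter's level in 4 pools, 2 of P0 and 2 of P1, and with the block and no filter its adjusted p was 0.06, so this call rests on the filter. In P3 against P2, 0 members and 0.143% of all genes passed, and with the block 0 members and 1.21%, while Slc16a1, Slc16a3 and Pdk1 (3 members) and 575 genes had an unadjusted p under 0.05 in limma without the block.

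In P4 against P3, 1 member passed, against 1.49% of all genes (3.55% with the block). It was Ldhb, the lactate dehydrogenase subunit that favours pyruvate, which read 10.47, 10.84 and 10.60 at P4, against 9.80, 10.16 and 9.88 at P3. It rose by 0.69 ± 0.15 (SE), 1.62-fold, with limma adjusted p = 0.036, and 0.00062 with the replicate block. The 12 earlier pools of Ldhb all lay between 9.60 and 10.16, below every P4 pool, and a second probe set of Ldhb differed by 0.53. The call without the block was lost in several other fits, among them that within replicates 2 and 3 (adjusted p = 0.061) and, of the pools of P3 and P4, without P3 replicate 1, P3 replicate 3, P4 replicate 2 or P4 replicate 3 (0.12 to 0.20), with differences of 0.59 to 0.71. Leaving out P0 replicate 3, P1 replicate 2, P2 replicate 2 or P2 replicate 3, which leaves the difference at 0.69, gave 0.053 to 0.059. Bnip3l read 10.55, 10.54 and 10.36 at P4, against 10.88, 10.71 and 11.03 at P3. Its pools did not overlap, and it passed only with the first replicates set against the others as a block (-0.39, limma adjusted p = 0.043), a fit in which 3.35% of all genes passed.

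Over the days labelled cap mesenchyme, in P3 against P0, 10 of the 32 members passed and all fell, against 2.18% of all genes and 1.09% for genes that fell. Marker lists of cap mesenchyme, renal vesicle and stroma moved in the same comparison, as given with the markers. The 10 members were 3 enzymes, 3 transport and flux genes and 4 other targets. The medians of these 3 roles were -0.30, -0.70 and -0.22, against -0.02 over all genes. Pdk1 read 7.12, 6.73 and 6.23 at P3 and fell by 1.55 ± 0.23 (SE), 2.93-fold (limma adjusted p = 0.0024). P4ha1 read 8.01, 7.85 and 7.13 and fell by 1.35 ± 0.20, 2.55-fold (0.0026). Both lay below all P0 pools, with the third P3 replicate the lowest in each. Aldoa read 9.53, 9.54 and 9.24 and fell by 0.89 ± 0.14 (0.0040), and Pfkl 6.88, 6.96 and 7.02 and fell by 0.88 ± 0.15 (0.0056). Ldha, Slc16a1, Slc16a3, Bnip3, Egln3 and Car9 fell by 0.70 to 1.06. With the replicate block 11 members passed, against 6.48% of all genes, and the added one was Tpi1 (-0.81, limma adjusted p = 0.0010). Of the 29 members without Egln3, Car9 and Aldoc 8 passed, and 9 with the block. Without the block the count over the 32 was 5 when P0 replicate 2 was left out and 6 when P0 replicate 3, P2 replicate 3, P3 replicate 2 or P3 replicate 3 was, and Pdk1 and P4ha1 passed in each of these fits.

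In P4 against P0, 12 members passed, against 5.63% of all genes, and 11 of them fell, against 2.45% for genes that fell. Pdk1 read 6.85, 6.20 and 6.09 at P4, against 8.31, 8.40 and 8.02 at P0, and fell by 1.87 ± 0.23 (SE), 3.65-fold (limma adjusted p = 0.00012). Slc16a1 read 7.62, 7.53 and 7.12 at P4, against 8.73, 8.72 and 8.37 at P0, and fell by 1.18 ± 0.17, 2.27-fold (0.00052). P4ha1 read 7.67, 7.93 and 7.35 at P4, against 8.97, 9.17 and 8.90 at P0, and fell by 1.36 ± 0.20 (0.00062). No P4 pool of these 3 reached its P0 pools.

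Aldoa read 9.36, 9.46 and 9.46 at P4, against 10.18, 10.21 and 10.57 at P0, and fell by 0.89 ± 0.14 (limma adjusted p = 0.0011). Pfkl, Ldha, Bnip3, Bnip3l, Egln3, Ankrd37 and Car9 fell by 0.57 to 0.96, and Ldhb alone rose, by 0.78 ± 0.15 (0.0057), against 3.18% for genes that rose. With the replicate block 18 members passed, against 11.1% of all genes, and 17 of them fell. The 6 added were Tpi1 (-0.73), Slc16a3 (-0.54), Slc2a1 (-0.47), Egln1 (-0.44), Pfkm (-0.42) and Pgam1 (-0.42). Pgk1 was not among them, at 11.39 ± 0.09 in P4 and 11.70 ± 0.09 in P0 (SD, n = 3 each). Without Egln3, Car9 and Aldoc 10 of 29 passed, and 16 with the block.

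An F test over all 5 days passed for 10 members, against 5.37% of all genes. They were 4 enzymes, Pfkl, Aldoa, Ldha and Ldhb, the transport and flux genes Slc16a1 and Pdk1, and the targets Bnip3l, Egln3, Car9 and P4ha1. The smallest limma adjusted p-values were 0.00058 for Pdk1, 0.0014 for Slc16a1, 0.0023 for P4ha1 and 0.0024 for Car9, with day means that spanned 1.87, 1.18, 1.36 and 1.06 on the log2 scale. The median span was 0.52 over the enzymes, 0.70 over the transport and flux genes, 0.61 over the other targets and 0.28 over the factor genes, against 0.26 over all genes. By role 4 of 12 enzymes and 4 of 11 other targets passed, with Ldhb, whose highest mean was at P4, among the enzymes, and the difference between the roles was not tested. Of the 29 members without Egln3, Car9 and Aldoc 8 passed.

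The factor genes themselves passed in none of the 7 tests of limma, and at an unadjusted p under 0.05 there was 1 of the 4, Hif1a, in P4 against P0. Hif1a, the oxygen-regulated alpha subunit, read 9.49, 9.53 and 9.26 at P0, 9.55, 9.18 and 9.45 at P1, 9.34, 9.39 and 9.23 at P2, 9.56, 9.18 and 9.22 at P3, and 9.37, 9.13 and 8.51 at P4. Its pools overlapped on all days, with 1 low value in the third P4 pool. Its difference between P1 and P0 was -0.04 ± 0.19 (SE), and between P4 and P0 -0.42 ± 0.19 with limma adjusted p = 0.33.

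Epas1, which encodes the second alpha subunit, known from endothelial and interstitial cells, read 6.77, 6.99 and 7.02 at P0, 7.02, 6.99 and 6.86 at P1, 6.75, 6.99 and 6.72 at P2, 6.95, 7.11 and 7.06 at P3, and 6.99, 7.33 and 6.99 at P4. It lay near the median of all values on every day. Its difference was 0.03 ± 0.13 between P1 and P0 and 0.17 ± 0.13 between P4 and P0. Arnt, the shared partner subunit, averaged 8.93 at P0 and between 8.65 and 8.78 on the later days, and Vhl, which marks the alpha subunits for degradation, lay between 7.96 and 8.13 in mean on all 5 days. The arrays do not measure the amount of the factor proteins.

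**Figure D5:**
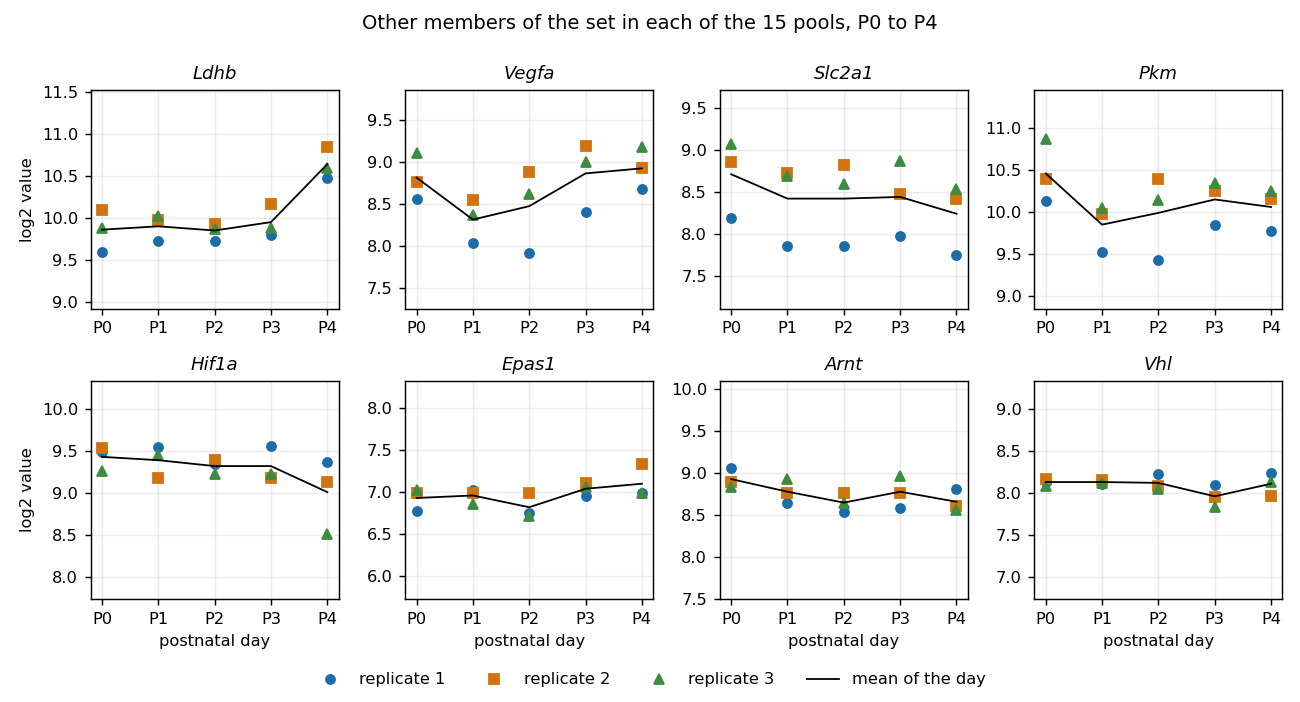
Panels are drawn as in the plot of single members by day, for Ldhb, Vegfa, Slc2a1, Pkm and the 4 factor genes, with the log2 value of each pool against postnatal day. The 3 P4 pools of Ldhb lie above its 12 earlier pools, and the first replicates of Slc2a1 lie below the others on each day. The lines of Epas1, Arnt and Vhl are close to level, and that of Hif1a runs from 9.43 at P0 to 9.01 at P4.

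Of the 5 members under the filter, Adm, Pfkfb4 and Eno2 had day means between 5.72 and 6.42, and Slc2a3, a neuronal-type glucose transporter, between 6.65 and 6.88. Pfkp, the platelet-type phosphofructokinase, read 6.61, 6.59 and 6.72 at P4, against 5.80, 5.68 and 5.58 at P0, with a mean higher by 0.95 at P4, which was not tested. None of its 15 values reached 6.86. Pfkl and Pfkm, which encode the other 2 forms of this enzyme, were lower at P4 than at P0 by 0.80 and 0.42.

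Neighbouring pathways were set beside the members by lists that hold none of them. Of 19 other genes of glycolysis and pyruvate use that were tested, 0 passed between P1 and P0 in either fit, with a median difference of 0.02, and of 6 pentose phosphate genes 0 passed, with a median of -0.05, and at an unadjusted p under 0.05 in limma there were 0 of both lists. The smallest p in these lists at that step belonged to Pdk4 (0.33 ± 0.21), Pfkfb2, Bpgm and Pdhb, and to Rpe, Rpia, Pgd and Tkt. In the F test 1 of the 19 passed, a share near the 5.37% of all genes. It was Eno3, the muscle enolase, with day means of 9.04, 8.91, 8.44, 8.17 and 7.80 over P0 to P4 and limma adjusted p = 0.023. The pentose phosphate genes gave no pass in any of the 7 tests of limma, and at an unadjusted p under 0.05 there were Rpe in P4 against P3 and Pgd in P3 against P0.

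Of 27 other hypoxia response genes tested, 19 were lower at P1 than at P0, against 50.3% of all genes, with a median of -0.12. Ak4, an adenylate kinase of mitochondria, read 7.19, 7.22 and 7.05 at P1, against 7.79, 7.95 and 8.08 at P0. It differed by -0.78 ± 0.14 (SE), with limma adjusted p = 0.16, and fell with the replicate block (0.029), as Pfkl, Tpi1, Aldoa and Egln3 did. Wsb1, Plod1, a collagen lysyl hydroxylase, and its relative Plod2 differed by -0.43, -0.53 and -0.24 and did not pass. In the other direction, all P1 pools of Gbe1 and Tfrc lay above all their P0 pools, with differences of 0.32 and 0.26. Neither passed in the fit without the block. In the F test 2 of the 27 passed, Ak4 (limma adjusted p = 0.011) and Stc2 (0.024), a share near the 5.37% of all genes. Stc2, a secreted glycoprotein, was higher at P4, with a mean of 8.28 against 7.58 at P3.

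Cell type markers were read as mean log2 values per pool. Between P1 and P0 no marker passed in the fit without the block, and the cap mesenchyme list of 10 genes ran from 9.57 to 10.03 at P1, against 9.61 to 10.17 at P0. This list was lower at P1 in all 3 same-numbered pairs, a pairing clear at this step only for the first replicates. Of its 10 genes 9 had lower means, against 50.3% of all genes. The stroma list of 8 ran from 8.48 to 8.71 at P1, against 8.70 to 8.87 at P0, and was also lower in all 3 same-numbered pairs, by 0.22, 0.17 and 0.16. Of its genes 7 of 8 were lower at P1, most of all Pdgfra, a receptor of stromal cells, which read 7.47, 7.62 and 7.55 at P1, against 8.34, 8.07 and 7.91 at P0. It differed by -0.56 ± 0.20 (SE), with no overlap and limma adjusted p = 1, and 0.45 with the replicate block. Cd68, a macrophage gene, averaged 7.62 ± 0.31 at P1, against 8.31 ± 0.26 at P0, and fell with the replicate block (-0.69, limma adjusted p = 0.021), while the macrophage list of 7 ran from 6.36 to 6.58 at P1, against 6.43 to 6.76 at P0, and the erythroid list of 4 from 6.34 to 6.38 at P1, against 6.11 to 6.43 at P0. Stress and immediate-early genes ran from 7.54 to 8.34 at P1, against 7.70 to 8.45 at P0. Of 8 endothelial markers 7, Pecam1 and Kdr among them, were under the filter. The part of these in the step of the members was not tested.

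The comparisons with P3 and P4 moved together with the marker lists. The cap mesenchyme list ran from 8.97 to 9.09 at P3 and from 7.89 to 7.99 at P4, and 8 of its 10 genes fell between P0 and P4. The renal vesicle list of 10 ran from 9.25 to 9.82 at P4, against 7.51 to 7.93 at P0, and 9 of its genes rose. It already ran from 8.20 to 8.83 at P2 and from 8.93 to 9.60 at P3. In P3 against P0, 7 of its 10 genes passed as higher, against 130 of all 11885 genes. The pools labelled cap mesenchyme at P2 and P3 thus already carried renal vesicle transcripts at raised levels. The ureteric bud list ran from 7.07 to 7.16 at P4, against 6.42 to 6.72 at P0, the proximal tubule list from 6.83 to 6.98 at P4, against 6.47 to 6.74 at P0, and the endothelial list from 6.50 to 6.54 at P4, against 6.11 to 6.28 at P0. The endothelial list did not rise as a group. Cldn5, its only gene over the filter, averaged 9.47 at P4 and 7.48 at P0. The median difference over its 8 genes was 0.06, and 3 of them were lower at P4. The stroma list ran from 8.10 to 8.45 at P3 and from 8.16 to 8.25 at P4, against 8.70 to 8.87 at P0. Of its 8 genes 3 passed as lower in P3 against P0 and 4 in P4 against P0, against 1.09% and 2.45% of all genes. Crym, whose sequence drives the reporter, averaged 7.80 ± 0.16 at P4 and 11.91 ± 0.23 at P0. The part of these markers in the falls of members in P3 and P4 against P0, and in the rise of Ldhb, was not tested.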

How the data were processed

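Values came from 15 arrays, 3 for each day from P0 to P4, grouped by the day and source in the labels. The authors deposited 1 table of 35557 probe sets on a log2 scale, for which the submitters' processing notes name Affymetrix Expression Console. Version, summarization and background correction were not given in the sources used here. No scanner files were used. The deposited log2 values were taken with no further normalization, and folds of dim genes may be understated.

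Gene symbols came from the platform table, where 21789 have 1 symbol, 1621 several and 12147 no entry. Where a gene had more than 1 probe set (999 genes), the brightest by mean was used. Genes above log2 6.86, the median of all values, in at least 3 arrays were kept. The model held 5 day means over all 15 arrays and was fitted with limma 3.58.1 (lmFit and eBayes) in R 4.3.3, tests were two-sided, and p-values were adjusted by Benjamini-Hochberg over the 11885 genes kept. The fit was tested on simulated data for P1 against P0. At the adjusted limma threshold it recovered 15 of 100 genes changed by 0.5 on the log2 scale and 65 of 100 changed by 1. The same run also called 6 genes that had not been changed. The simulated noise was independent between arrays, without the shared deviations of the replicates in the real data. Precision is limited by the 3 arrays of a day.

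Same-numbered samples correlated in their deviations from the day means at over 0.1 in 3 of 3 pairs of every comparison of 2 days (lowest 0.138, P1 and P0), so the number was taken to pair the samples there. For replicates 2 and 3 of P0 and P1 this pairing is weak. P0 replicate 2 correlated at 0.674 with P1 replicate 3, and P0 replicate 3 at 0.504 with P1 replicate 2. The replicate number is that of the title, and the first sample of a day, which carries none, was taken as 1. Over all 5 days 29 of 30 same-numbered pairs correlated at over 0.1.

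The members, the lists and the tests were chosen with earlier results of these data known. Named with values in every pool are the members that pass in P1 against P0 (with none, the 6 with the smallest p), up to 4 that pass in each other comparison, Hif1a and Epas1, and up to 4 genes of each neighbouring list. Tpi1, Vegfa, Ankrd37, Car9 at P2, Bnip3l and Pfkp were added after their values were seen. The alternatives were the replicate block, the first replicates against the others as a block, replicates 2 and 3 alone, no filter and a stricter one, quantile normalization, median centring, the mean over probe sets, only the 2 days compared, array weights, leaving out each array and, chosen after seeing the data, the probe set backed by a RefSeq transcript, the replicate block with no filter, and counts without Hk1 and without Egln3, Car9 and Aldoc. Promoters came from RefSeq (GRCm38.p6) and were matched by symbol.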

Additional observations from a re-analysis of the deposited data

How the results depend on the processing

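No difference of a named gene that passed in either fit changed its sign under any alternative run. Of the single named genes, Epas1 and Hif1a changed sign in differences near 0 that passed in no fit (6 values in 4 results), such as Epas1 in P1 against P0 with -0.08 within replicates 2 and 3, against 0.03, and Hif1a there with 0.07 without P1 replicate 2, against -0.04. Counts of members past the limma threshold moved with the block in P1 against P0, P4 against P0 and the F test, and with other settings in P3 against P0 and P4 against P3. For P1 against P0 the count was 0 without it, 4 with the replicate block and 4 with the first replicates as a block, for P2 against P1 0, against 1 with either block and with array weights, and for the F test 10, against 17 with either block. For P3 against P0 it was 10, against 3 when only those 2 days were fitted. For P4 against P3 it was 1, against 2 with the first replicates as a block and 0 within replicates 2 and 3, without the filter, with median centring and with only the 2 days.

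Over all genes the replicate block gave 20 genes for P1 against P0 (0 without it), 114 for P2 against P1 (10), 144 for P3 against P2 (17), 422 for P4 against P3 (177), 770 for P3 against P0 (259), 1323 for P4 against P0 (669) and 1483 in the F test (638). The first replicates as a block gave 19, 103, 146, 398, 716, 1249 and 1386 in the same order, and the replicate block with no filter on low values, chosen after seeing the data, 19, 90, 133, 426, 722, 1374 and 1493. With that setting the members numbered 4 for P1 against P0, 0 for P2 against P1, 19 for P4 against P0 and 17 in the F test. Quantile normalization gave 3, 46 and 43 in the first 3 of these, median centring 2 and 8 for P2 against P1 and P3 against P2, and array weights 2, 312, 154 and, in the F test, 1011. Within replicates 2 and 3 there was 1 gene for P2 against P1 and 83 for P3 against P2. With only the 2 days compared the counts were 0 for P2 against P1, 0 for P3 against P2, 41 for P4 against P3 and 65 for P3 against P0. The median of the other hypoxia targets between P1 and P0 was -0.30 within replicates 2 and 3, against -0.17. The cause of these shifts was not tested.

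With 1 pool left out the members past the threshold numbered 0 to 0 for P1 against P0, P2 against P1 and P3 against P2, 5 to 10 for P3 against P0, 10 to 12 for P4 against P0, 0 to 1 for P4 against P3 and 7 to 11 in the F test. All genes past it numbered 0 to 2 for P1 against P0, 0 to 23 for P2 against P1, 1 to 55 for P3 against P2, 99 to 187 for P4 against P3, 121 to 261 for P3 against P0, 455 to 738 for P4 against P0 and 462 to 653 in the F test. Of 876 values of single named genes under an alternative, 854 kept their side of the threshold, 13 lost it and 9 gained it. Signal limits Egln3, Car9 and Epas1, which lie near the median of all values, and the later values of Pfkl and Pdk1, near or under it. Of the 30 same-numbered pairs over all 5 days the lowest correlation was 0.0782, and 11 of 15 samples correlated best with their own number, so the block in the F test is given only here.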

Other observations

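Gapdh, the glyceraldehyde 3-phosphate dehydrogenase, is covered by 25 probe sets that carry other symbols beside it and entered no comparison. Their means over the 15 arrays lay between 10.00 and 12.61. In all 25 the P1 mean was below the P0 mean, by a difference of -0.26 to -0.09 with a median of -0.13, and all 25 were lower at P4 than at P0, with a median of -0.10. These probe sets can take signal from related sequences, so the values are given with no test. They share a symbol and were read in the same pools, so they do not count as 25 separate observations.

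Wsb1, an E3 ligase component of the other hypoxia response list, had its lowest day mean at P1. It read 9.46, 9.35 and 9.29 at P1, against 9.87, 9.87 and 9.66 at P0, and between 9.67 and 10.01 in the P2 and P3 pools.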
